A study of Homo sapiens with 10 samples.

Results

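The 40 genes described here encode proteins of the nucleolus and of ribosome biogenesis and are listed by name. The choice was made with earlier results of these data known. All 40 genes were among the 19893 genes counted. They were followed in Kuramochi, a human BRCA2-mutant epithelial line from a high-grade serous ovarian carcinoma, by droplet single-cell RNA-seq of 13800 cells. Olaparib, the drug used, inhibits the DNA repair enzymes PARP1 and PARP2. The groups were naive cells exposed for 9 days to 10 µM olaparib (10 µM persister) or 320 µM olaparib (320 µM persister), olaparib-resistant populations adapted to 10 µM (10 µM adapted) or 320 µM (320 µM adapted), and drug-naive cells without olaparib (control). All share the BRCA2-mutant background, and the labels do not say how many clones an adapted population holds. Cells of the 5 conditions were mixed in 2 replicate pools. UMI counts (unique molecular identifiers, 1 per captured transcript) were added up by condition within a pool, so each condition has n = 2 sums. Whether the pools stem from separate cultures is not stated. The p-values below rest on the variation between pools within a condition, estimated over all 5 conditions together. That variation may be technical.

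Ribosomes are built mainly in the nucleolus. There RNA polymerase I transcribes the long ribosomal RNA precursor, small nucleolar ribonucleoproteins (snoRNPs) of the box C/D and box H/ACA types modify it, and large sets of assembly factors cut and fold it into the small and the large ribosomal subunit. Many genes of the process are known targets of the transcription factor MYC, and growing cancer cells usually have large nucleoli.

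The promoters of 5 members are shown, chosen for a largest change in a comparison against control or for the most UMIs. Not all members with a largest change are shown. RRP9 had the largest rise in 320 µM adapted cells, UTP20 the largest falls in persister cells and UTP18 the largest rise in 10 µM adapted cells, while NPM1 and NCL had the most UMIs. Each is 300 bases of RefSeq sequence on GRCh38.p14, from 250 bases before the annotated start to 50 after it, written 5′ to 3′ on the gene's own strand. Capitals mark CACGTG, the E-box to which MYC and related factors are known to bind, which reads the same on both strands.
RRP9 (chr3:51941855-51942154, minus strand): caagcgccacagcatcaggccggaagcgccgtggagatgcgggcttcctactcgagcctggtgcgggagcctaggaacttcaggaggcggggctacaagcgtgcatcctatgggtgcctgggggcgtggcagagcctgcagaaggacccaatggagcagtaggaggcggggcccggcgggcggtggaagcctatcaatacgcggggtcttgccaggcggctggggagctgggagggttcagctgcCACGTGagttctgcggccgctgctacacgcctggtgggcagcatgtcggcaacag
UTP20 (chr12:101279855-101280154, plus strand): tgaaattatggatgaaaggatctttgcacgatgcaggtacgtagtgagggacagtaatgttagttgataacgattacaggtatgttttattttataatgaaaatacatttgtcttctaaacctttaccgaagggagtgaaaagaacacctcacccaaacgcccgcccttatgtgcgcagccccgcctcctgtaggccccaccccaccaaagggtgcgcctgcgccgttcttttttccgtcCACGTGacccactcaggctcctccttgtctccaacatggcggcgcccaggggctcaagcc
UTP18 (chr17:51260296-51260595, plus strand): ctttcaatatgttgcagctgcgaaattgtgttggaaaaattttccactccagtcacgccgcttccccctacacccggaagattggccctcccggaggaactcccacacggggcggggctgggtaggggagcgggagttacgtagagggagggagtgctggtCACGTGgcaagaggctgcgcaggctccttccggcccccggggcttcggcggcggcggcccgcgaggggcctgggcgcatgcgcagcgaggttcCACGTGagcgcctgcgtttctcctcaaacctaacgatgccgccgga
NCL (chr2:231464435-231464734, minus strand): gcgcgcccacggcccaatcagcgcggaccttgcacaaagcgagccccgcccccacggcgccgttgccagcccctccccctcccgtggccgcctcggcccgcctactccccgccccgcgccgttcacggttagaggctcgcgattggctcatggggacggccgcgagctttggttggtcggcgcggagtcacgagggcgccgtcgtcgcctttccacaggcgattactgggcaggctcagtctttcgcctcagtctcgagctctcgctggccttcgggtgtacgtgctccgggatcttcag
NPM1 (chr5:171387599-171387898, plus strand): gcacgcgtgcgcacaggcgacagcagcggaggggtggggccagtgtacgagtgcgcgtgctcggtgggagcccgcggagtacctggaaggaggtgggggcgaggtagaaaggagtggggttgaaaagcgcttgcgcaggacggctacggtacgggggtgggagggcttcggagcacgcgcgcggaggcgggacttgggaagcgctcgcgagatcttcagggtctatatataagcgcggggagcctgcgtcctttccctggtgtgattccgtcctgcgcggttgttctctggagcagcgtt
RRP9 and UTP20 have 1 such motif, UTP18 has 2, and the windows of NCL and NPM1 have none. Not shown are WDR74, with the largest rise in 10 µM persister cells, and MRTO4, with the largest fall in 10 µM adapted cells. The window of MRTO4 has 1 CACGTG, and those of WDR74, GNL3, DDX21 and GAR1 have none. Windows were matched for 33 of the 40 genes, and 13 of these (39.4%) hold CACGTG, against 7.26% of all 35116 windows and 8.94% of the 14854 windows of counted genes. The 13 genes are FBL, RRP9, NOP10, UTP4, UTP18, UTP20, WDR43, NOP14, NAT10, PES1, NOP2, NOC3L and MRTO4. A match is a description of the sequence and not evidence of binding.

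Cells numbered 300 and 263 in 10 µM persister, 742 and 606 in 320 µM persister, 1831 and 1584 in 10 µM adapted, 2038 and 1846 in 320 µM adapted and 2435 and 2155 in control. The sums held 3532281 to 23189583 UMIs, the 10 µM persister sums being the shallowest. Levels are CPM, UMI counts set to a common total after trimmed mean of M-values scaling, and log2 changes carry the direction of the condition named first. Changes were tested with edgeR's quasi-likelihood test over 13330 genes with Benjamini-Hochberg adjustment, and a gene rose or fell where its adjusted p was under 0.05. All 40 genes passed the filter on low counts. Summed epithelial markers stood at 3491 and 2833 CPM in 10 µM persister, 2472 and 2417 in 320 µM persister, 2475 and 2410 in 10 µM adapted, 1301 and 1171 in 320 µM adapted and 4073 and 4179 in control cells, lowest in 320 µM adapted cells. Summed markers of the ovarian serous lineage were at 444 and 424, 499 and 535, 167 and 173, 74.7 and 76.5, and 637 and 692 CPM in the same order, so both adapted conditions were far below control. Summed leukocyte markers were at 22.7 and 21.1, 4.01 and 2.91, 6.79 and 7.80, 17.7 and 18.9, and 0.929 and 1.02 CPM. Of these 7 markers CD68 and CD14 gave most UMIs, CD3E and MS4A1 had none in any sum, PTPRC had at most 2 in a sum, and 4, 3, 2, 2 and 3 of the 7 had none in a condition. Summed fibroblast markers were 186 and 183 CPM in 10 µM adapted cells and at most 12.9 CPM elsewhere. Summed mesothelial markers were at 1.63 and 1.39 CPM in 320 µM adapted cells and at 13.3 to 50.5 CPM elsewhere, and endothelial markers at no more than 9.13 CPM. The part of these marker shifts in the results below was not tested.

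Summed over the 40 genes, the level was lower in both persister conditions than in control cells and lay nearest to control in 320 µM adapted cells. The sums were 5001 and 4675 CPM in 10 µM persister, 4764 and 4590 in 320 µM persister, 6511 and 6405 in 10 µM adapted, 7781 and 7518 in 320 µM adapted and 7279 and 7101 in control. The pools of 320 µM adapted cells were both above those of control, and all other treated pools were below. NPM1 and NCL make up a large share of this total, and without them the sums were 2474 and 2339, 2100 and 2036, 2255 and 2262, 3086 and 3039, and 2716 and 2723 CPM in the same order. Relative to all UMIs with no further scaling, the 40 genes took 0.549% and 0.520% in 10 µM persister, 0.500% and 0.488% in 320 µM persister, 0.629% and 0.622% in 10 µM adapted, 0.677% and 0.653% in 320 µM adapted and 0.740% and 0.722% in control cells. On this scale 320 µM adapted cells were below control, so their order against control turned with the scaling. Ribosomal protein genes took 36.8% and 36.9% of UMIs in 320 µM adapted cells, 13.8% and 14.7% in 10 µM persister cells and 25.1% and 25.3% in control cells, and their part in the turn was not tested.

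**Figure D1:**
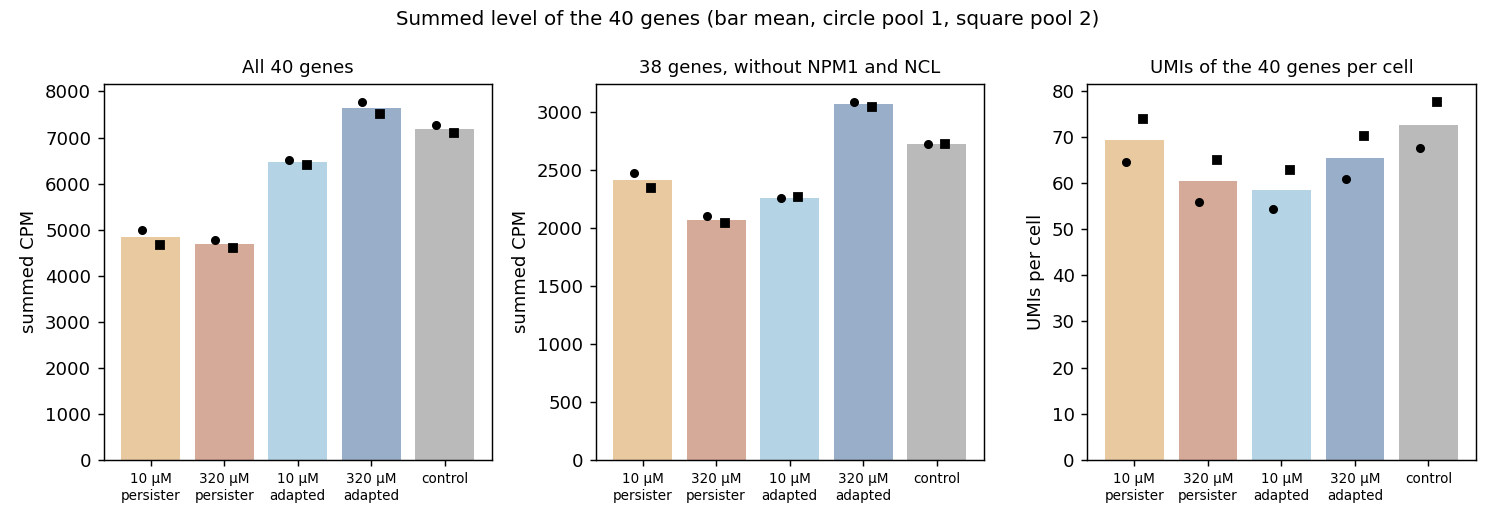
Summed CPM of the 40 genes, summed CPM of the 38 genes other than NPM1 and NCL, and UMIs of the 40 genes per cell (y axes) in the 5 conditions (x axes). Bars are means of the 2 pools, circles pool 1 and squares pool 2; both persister conditions lie below control in the first panel, and the third shows less distance between the conditions than the first.

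Per captured cell the conditions lay closer together, since persister cells yielded more UMIs each, at 11774 and 14240 in 10 µM persister and 11190 and 13338 in 320 µM persister, against 9138 and 10761 in control. A cell held on average 64.6 and 74.0 UMIs of the 40 genes in 10 µM persister and 56.0 and 65.1 in 320 µM persister. It held 54.5 and 62.7 in 10 µM adapted, 61.0 and 70.1 in 320 µM adapted and 67.6 and 77.7 in control. Within each pool, 10 µM persister cells were on this scale above both adapted conditions, and 320 µM persister cells above 10 µM adapted cells. In cells thinned to 3000 UMIs each, the median was 15 and 14 UMIs in 10 µM persister, 14 and 14 in 320 µM persister, 18 and 17 in 10 µM adapted, 19 and 18 in 320 µM adapted and 21 and 21 in control. Low values moved as well as the median. The 10th percentiles were 9 and 8, 9 and 9, 11 and 11, 11 and 11, and 14 and 13 UMIs in the same order. Cells left out as shallower numbered 27 and 25, 15 and 20, 35 and 21, 19 and 16, and 11 and 18. These per-cell values include NPM1 and NCL. Without these genes the summed CPM of 10 µM persister cells, 2474 and 2339, was above that of 10 µM adapted cells, 2255 and 2262.

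**Figure D2:**
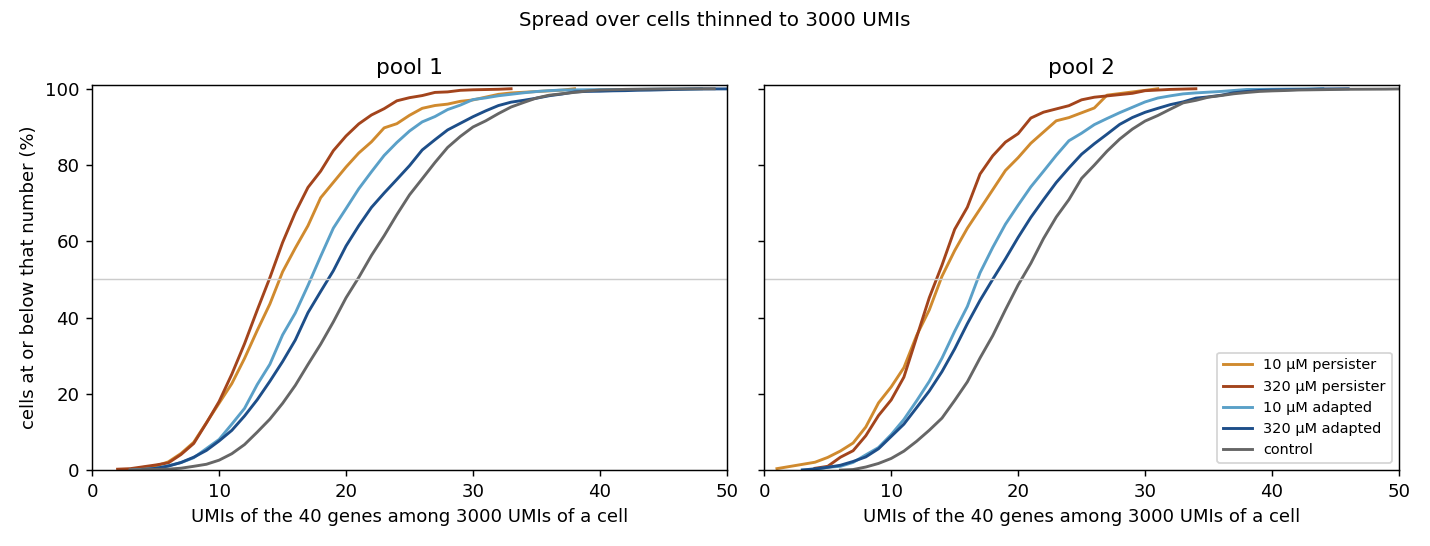
Share of cells (y axis, %) at or below a number of UMIs of the 40 genes (x axis) among 3000 UMIs drawn from each cell, 1 line per condition, pool 1 left and pool 2 right. The persister lines lie left of the adapted lines and the control line lies furthest right, with medians of 14 to 15 UMIs in persister cells and 21 in control. NPM1 and NCL, the members with the most UMIs, are included.

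Against control, both persister conditions and 10 µM adapted cells had mostly falls among the 40 genes, and 320 µM adapted cells mostly rises. In 10 µM persister cells 10 rose and 20 fell, where 27.3% of all tested genes rose and 29.3% fell. In 320 µM persister cells none rose and 27 fell, against 26.3% and 28.3% of all genes. Here 0 members was also the count of rises with DESeq2, and 0 of the 40 had a rise with an unadjusted p under 0.05. The count was 2 with library totals alone, with totals without ribosomal protein genes and in cells on the deposited list described below. It was 1 with the compared sums only. In 10 µM adapted cells 3 rose and 27 fell, against 33.7% and 33.4% of all genes. In 320 µM adapted cells 22 rose and 13 fell, against 37.6% and 36.9%. Median log2 changes of the 40 were −0.26, −0.43, −0.26 and 0.17 in these comparisons, and those of all tested genes −0.026, −0.013, 0.0048 and 0.0092.

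The 4 comparisons share their control sums, so their counts are not independent. In all, 10 genes (25% of the 40) fell in every one of the 4, namely NCL, FBL, WDR12, RRS1, POLR1A, POLR1B, UTP20, MRTO4, NAT10 and URB2, and 9.29% of all tested genes did so. NCL alone of these kept all 4 calls under each of the 14 alternatives tried. None rose in all 4, which 5.48% of all genes did. UTP4 alone passed in none. The lowest mean of the 5 conditions was in 320 µM persister cells for 17 genes, and the highest was in 320 µM adapted cells for 19 and in control for 14. With library totals alone the counts in 320 µM adapted cells were 10 rises and 16 falls, while the median change of all genes moved by −0.23 and the share of rises among all calls was 37.4% in place of 50.5%. Of the 13 genes with CACGTG in the window 3 rose and 6 fell in 10 µM persister, 0 and 8 in 320 µM persister, 1 and 7 in 10 µM adapted and 6 and 5 in 320 µM adapted cells. Of the 20 genes without it 6 rose and 10 fell, 0 and 14, 2 and 15, and 12 and 5, and the difference between the 2 sets was not tested.

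**Figure D3:**
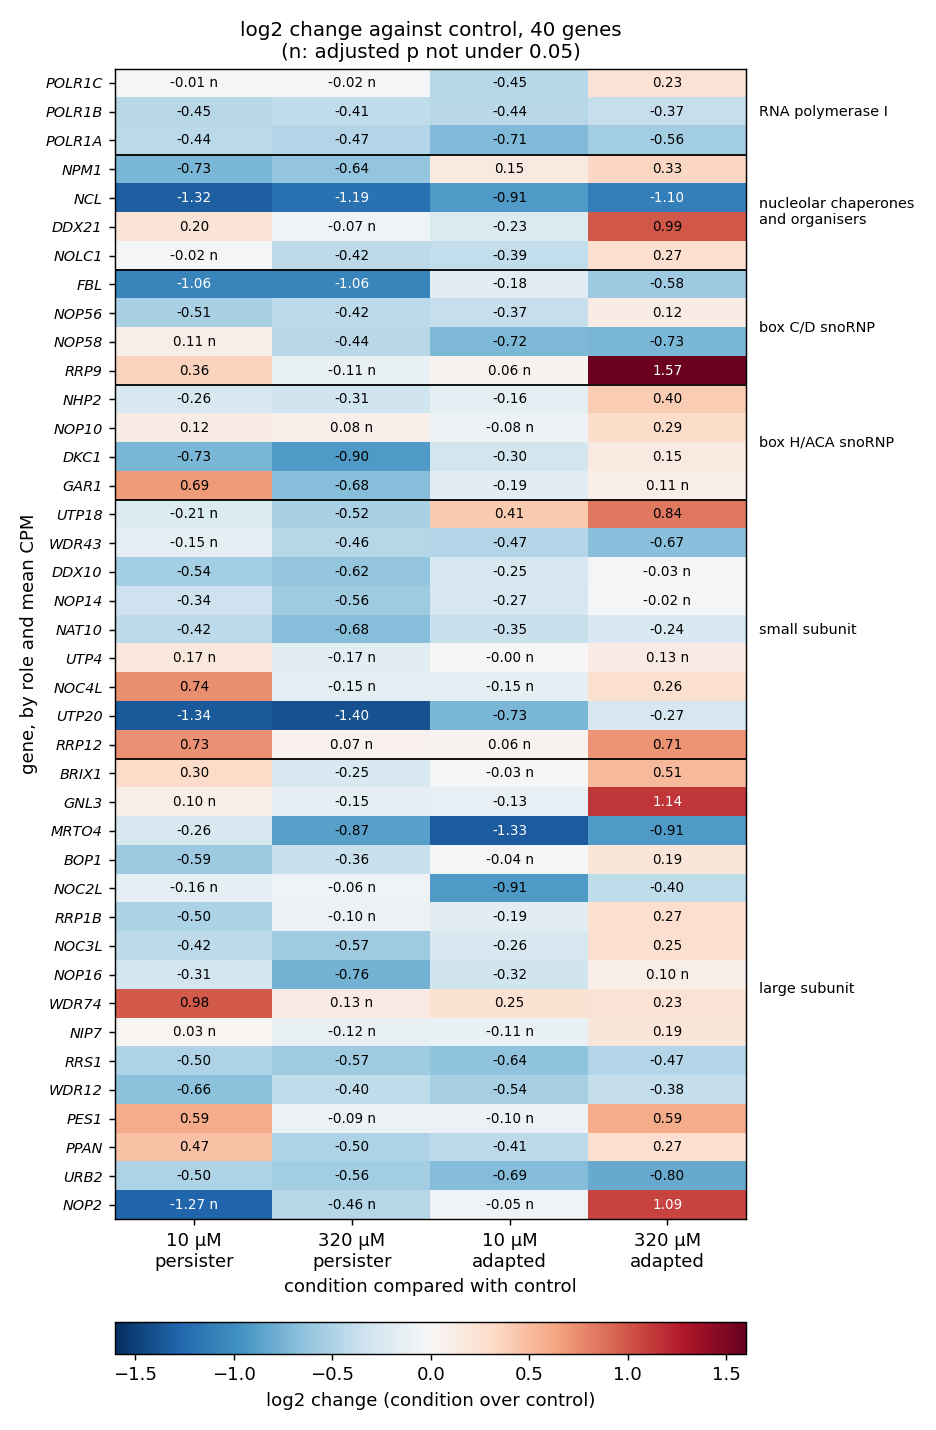
log2 change of each of the 40 genes (rows, by role and mean CPM) in 10 µM persister, 320 µM persister, 10 µM adapted and 320 µM adapted cells against control (columns); red is higher, blue lower, and n marks an adjusted p not under 0.05. NCL, FBL and UTP20 are blue in every column, and the 320 µM adapted column holds 22 rises, from RRP9 at 1.57 downward.

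RNA polymerase I is the enzyme that transcribes the ribosomal RNA precursor. Its largest subunit gene POLR1A and its second-largest POLR1B fell in all 4 treated conditions, and POLR1C, a subunit shared with RNA polymerase III, fell in 10 µM adapted cells and rose in 320 µM adapted cells. POLR1B stood at 13.2 and 19.0 CPM in 10 µM persister, 16.9 and 16.3 in 320 µM persister, 15.7 and 16.7 in 10 µM adapted, 17.5 and 16.5 in 320 µM adapted and 22.2 and 21.8 in control cells. All 8 treated sums were below both control sums, with log2 changes of −0.45 ± 0.14 (SE, adjusted p = 0.00571), −0.41 ± 0.11, −0.44 ± 0.10 and −0.37 ± 0.09. Between the treated conditions POLR1B passed no test of dose or state. POLR1A changed by −0.44, −0.47, −0.71 and −0.56. Only in 10 µM adapted and 320 µM adapted cells did POLR1A keep its call under every alternative tried, and POLR1B did so in no comparison against control. The 10 µM persister calls of both rest on 1 sum: without pool 1 of that condition POLR1B was at −0.21 (adjusted p = 0.313) and POLR1A at −0.29 (adjusted p = 0.177), and without pool 2 POLR1B was at −0.75. POLR1C stood at 35.3 and 28.1, 32.6 and 30.4, 22.7 and 24.0, 36.8 and 38.2, and 31.4 and 32.5 CPM in the same order of conditions. Its change was −0.45 ± 0.08 in 10 µM adapted cells (adjusted p = 1.23e-05) and 0.23 ± 0.07 in 320 µM adapted cells (adjusted p = 0.00621), and the rise was not called with library totals alone, without pool 2 of 320 µM adapted cells or without pool 1 of control, at 0.21 in both cases.

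Nucleolar chaperones and organisers shape the compartment itself. NCL, nucleolin, an RNA-binding protein of the nucleolus, fell in every treated condition. It stood at 549 and 494 CPM in 10 µM persister, 585 and 552 in 320 µM persister, 709 and 679 in 10 µM adapted, 613 and 602 in 320 µM adapted and 1333 and 1269 in control cells. No treated sum came near control, and the log2 changes were −1.32 ± 0.05 (adjusted p = 4.78e-20), −1.19 ± 0.05, −0.91 ± 0.05 and −1.10 ± 0.05. These calls were kept under every alternative tried.

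NPM1, nucleophosmin, a histone and ribosome chaperone of the granular nucleolus, separated persister from adapted cells. It stood at 1978 and 1842 CPM in 10 µM persister, 2079 and 2003 in 320 µM persister, 3548 and 3465 in 10 µM adapted, 4083 and 3877 in 320 µM adapted and 3231 and 3109 in control cells. The persister sums lay below control and the adapted sums above it, with changes of −0.73 ± 0.04 (adjusted p = 6.3e-16), −0.64 ± 0.04, 0.15 ± 0.04 (adjusted p = 0.0016) and 0.33 ± 0.04. The rise in 10 µM adapted cells was lost with library totals alone, at 0.08, and without pool 2 of control, at 0.11. GENCODE lists 45 NPM1 pseudogenes, and how reads shared with them were counted is not stated.

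DDX21, an RNA helicase that acts in ribosomal RNA transcription and processing, was highest in 320 µM adapted cells. Its sums were 137 and 142 CPM in 10 µM persister, 124 and 107 in 320 µM persister, 103 and 105 in 10 µM adapted, 242 and 241 in 320 µM adapted and 125 and 119 in control cells. The change in 320 µM adapted cells was 0.99 ± 0.05 (adjusted p = 2.1e-16), far beyond the distance between pools. NOLC1, a chaperone of snoRNPs in the nucleolus and Cajal bodies, fell by 0.42 and 0.39 on the log2 scale in 320 µM persister and 10 µM adapted cells and rose by 0.27 in 320 µM adapted cells.

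Box C/D snoRNPs carry out 2′-O-methylation of ribosomal RNA, with FBL, fibrillarin, as the methyltransferase, NOP56 and NOP58 as core scaffold proteins and RRP9 as a protein of the U3 snoRNP, which acts in precursor cleavage. FBL stood at 152 and 136 CPM in 10 µM persister, 142 and 147 in 320 µM persister, 266 and 266 in 10 µM adapted, 209 and 194 in 320 µM adapted and 298 and 303 in control cells. Every treated sum was below control, and the changes were −1.06 ± 0.06 (adjusted p = 3.05e-16), −1.06 ± 0.05, −0.18 ± 0.05 (adjusted p = 0.00194) and −0.58 ± 0.05.

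NOP56 stood at 103 and 88.9, 103 and 102, 106 and 106, 149 and 149, and 135 and 139 CPM in the same order. It fell by 0.51, 0.42 and 0.37 in the first 3 conditions, while its change of 0.12 in 320 µM adapted cells (adjusted p = 0.039) turned to −0.11 with library totals alone and was not called when any of the 4 compared sums was left out, at 0.099 to 0.13. NOP58 fell by 0.44, 0.72 and 0.73 in 320 µM persister, 10 µM adapted and 320 µM adapted cells and did not pass in 10 µM persister cells, at 142 ± 18.5 CPM against 131 ± 0.16 CPM in control (SD, n = 2 each).

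RRP9 had the largest rise of the 40 genes against control. Its sums were 25.8 and 23.8 CPM in 10 µM persister, 18.3 and 17.4 in 320 µM persister, 20.4 and 19.7 in 10 µM adapted, 58.0 and 56.3 in 320 µM adapted and 19.5 and 19.0 in control cells. The 320 µM adapted sums lay well above all others, with a log2 change of 1.57 ± 0.07 (adjusted p = 3.63e-18). In 10 µM persister cells the change was 0.36 ± 0.11 (adjusted p = 0.00509) but was not called without pool 1 of that condition, at 0.31, and turned to −0.18 in the cells off the deposited list described below. RRP9 lies at chr3:51933430-51941941 on GRCh38, minus strand.

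Box H/ACA snoRNPs convert uridine to pseudouridine, with DKC1, dyskerin, as the catalytic protein and NHP2, GAR1 and NOP10 as its partners. NHP2 stood at 299 and 301 CPM in 10 µM persister, 295 and 283 in 320 µM persister, 322 and 323 in 10 µM adapted, 474 and 477 in 320 µM adapted and 357 and 362 in control cells. It fell by 0.26, 0.31 and 0.16 in the first 3 conditions and rose by 0.40 ± 0.04 in 320 µM adapted cells (adjusted p = 4.98e-10), with no overlap of sums with control in any of them. NOP10 stood at 194 and 191, 189 and 186, 167 and 170, 215 and 219, and 173 and 182 CPM in the same order, and its rises were 0.12 ± 0.05 in 10 µM persister cells (adjusted p = 0.0469) and 0.29 ± 0.04 in 320 µM adapted cells (adjusted p = 1.29e-06). The first was not called when any of the 4 compared sums was left out, at 0.087 to 0.15 (adjusted p = 0.0614 to 0.281), and turned to −0.052 in cells off the deposited list.

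The 4 proteins of the H/ACA particle did not move together in persister cells. DKC1 fell by 0.73 ± 0.08 in 10 µM persister cells and by 0.90 ± 0.07 in 320 µM persister cells (adjusted p = 2.64e-12), whereas GAR1 rose by 0.69 ± 0.09 at 10 µM (adjusted p = 6.55e-08) and fell by 0.68 ± 0.09 at 320 µM. GAR1 sums were 52.6 and 51.7 CPM in 10 µM persister, 21.1 and 19.4 in 320 µM persister, 28.5 and 28.4 in 10 µM adapted, 34.0 and 36.0 in 320 µM adapted and 33.7 and 31.1 in control cells. The 10 µM persister sums were thus the highest and the 320 µM persister sums the lowest of all. In cells off the deposited list the GAR1 rise in 10 µM persister cells was not called. It stood there at 37.5 and 40.2 CPM, against 34.6 and 32.9 CPM in control. In 320 µM adapted cells DKC1, NHP2 and NOP10 rose against control, of which NHP2 alone was still called with library totals alone, where DKC1 turned to −0.080. The rise of DKC1 was also lost when any of the 4 compared sums was left out, at 0.14 to 0.15.

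**Figure D4:**
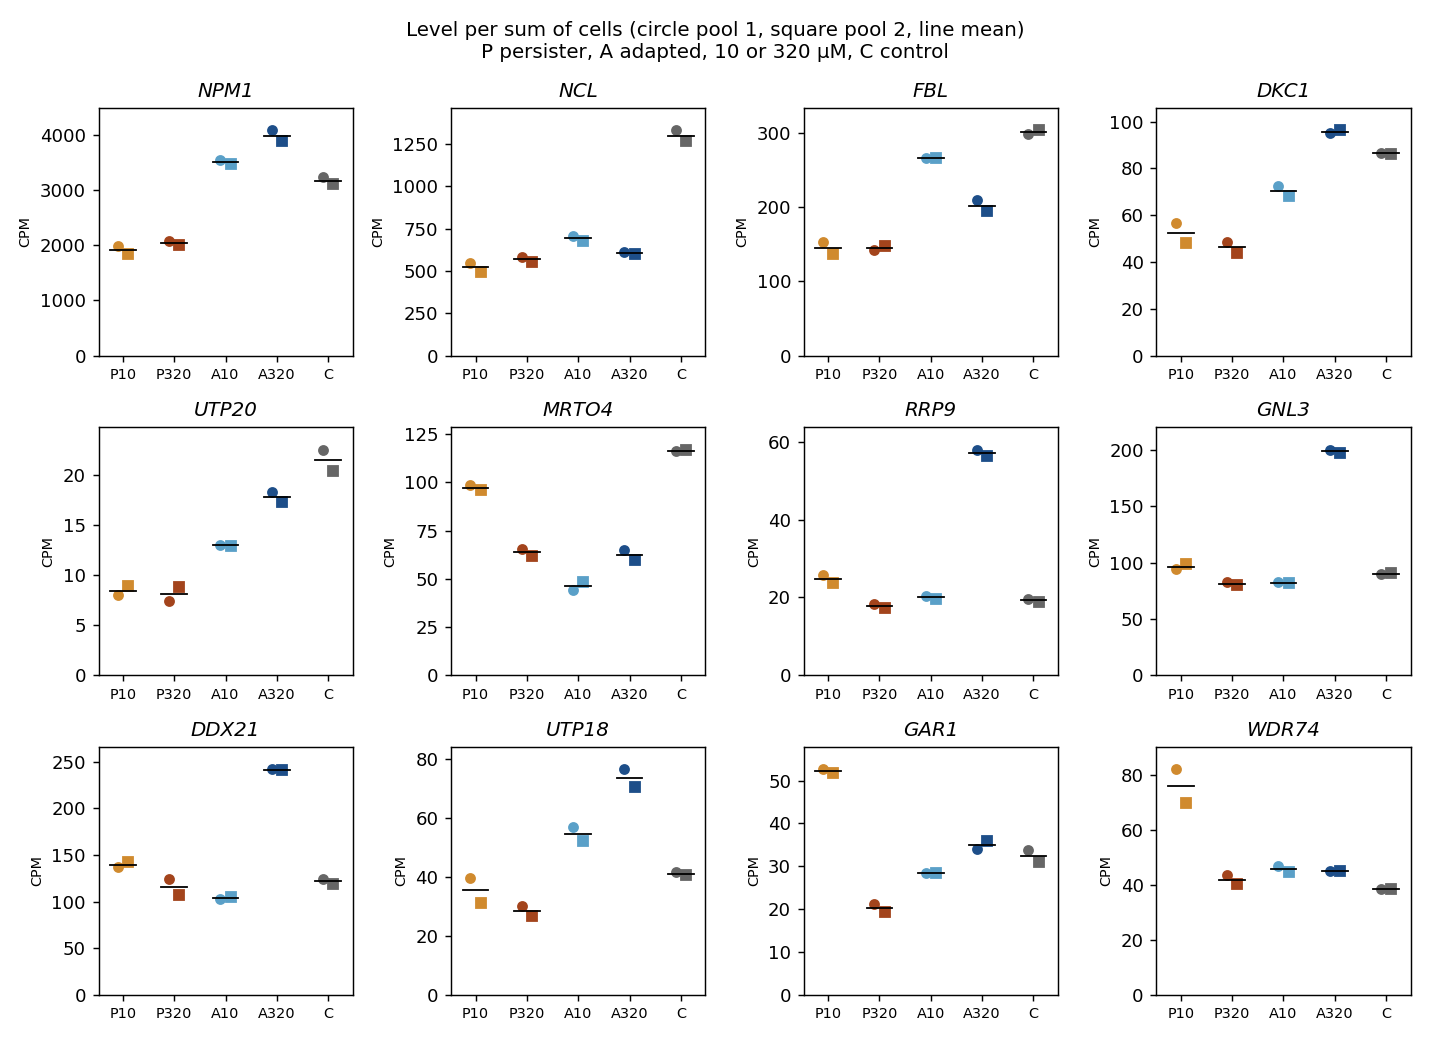
CPM (y axes, from 0) of 12 of the genes in each sum, by condition (x axes: P10 and P320 persister, A10 and A320 adapted, C control). Circles are pool 1, squares pool 2 and lines the mean; NCL is highest in control, while RRP9, GNL3 and DDX21 stand out in 320 µM adapted cells and GAR1 and WDR74 in 10 µM persister cells.

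Among 9 factors of the small subunit, UTP20 and UTP18 moved most. UTP20, a large scaffold protein of the small subunit processome, stood at 7.995 and 8.89 CPM in 10 µM persister, 7.45 and 8.85 in 320 µM persister, 13.1 and 12.9 in 10 µM adapted, 18.4 and 17.3 in 320 µM adapted and 22.6 and 20.4 in control cells. Its falls of 1.34 ± 0.16 in 10 µM persister cells (adjusted p = 1.24e-08) and 1.40 ± 0.12 in 320 µM persister cells (adjusted p = 5.68e-11) on the log2 scale were the largest in those comparisons, the first resting on 31 and 37 UMIs. In adapted cells it fell by 0.73 ± 0.10 at 10 µM and by 0.27 ± 0.09 at 320 µM (adjusted p = 0.00831), the last not called without pool 2 of 320 µM adapted cells, at −0.22, or without pool 1 of control, at −0.20.

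UTP18, a WD-repeat protein of the same processome, stood at 39.7 and 31.2, 30.2 and 26.9, 57.1 and 52.3, 76.5 and 70.6, and 41.5 and 40.6 CPM in the same order of conditions. It was above control in both adapted conditions, by 0.41 ± 0.07 at 10 µM (adjusted p = 1.09e-05) and 0.84 ± 0.07 at 320 µM (adjusted p = 8.01e-12), and fell by 0.52 ± 0.09 in 320 µM persister cells. WDR43, another protein of the processome, stood at 54.2 and 45.4, 42.5 and 37.6, 40.3 and 39.1, 35.6 and 33.8, and 53.6 and 56.6 CPM. Its falls of 0.46, 0.47 and 0.67 in 320 µM persister, 10 µM adapted and 320 µM adapted cells passed, and in 10 µM persister cells its sums overlapped those of control.

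NAT10, an RNA acetyltransferase, fell in all 4 conditions by 0.42, 0.68, 0.35 and 0.24, and the helicase DDX10 and NOP14 fell in the first 3, by 0.54, 0.62 and 0.25, and by 0.34, 0.56 and 0.27. RRP12 and NOC4L, which act in maturation of the small subunit, instead rose by 0.73 and 0.74 in 10 µM persister cells and by 0.71 and 0.26 in 320 µM adapted cells. Single sums ended 3 of these calls. NAT10 in 320 µM adapted cells was not called without pool 2 of that condition, at −0.23, and NOP14 in 10 µM persister cells not without pool 2, at −0.29. NOC4L in 320 µM adapted cells was not called without pool 1, at 0.23, or without pool 1 of control, at 0.19. The rises of RRP12 and NOC4L in 10 µM persister cells were not called in cells off the deposited list. In those cells RRP12 stood at 12.5 and 10.05 CPM, against 10.2 and 9.85 CPM in control cells off the list. NOC4L stood at 18.8 and 16.1 CPM against 14.9 and 16.8 CPM. UTP4 stayed between 18.1 and 25.3 CPM in all sums.

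Among 16 factors of the large subunit, 10 rose and 5 fell in 320 µM adapted cells, where 37.6% of all tested genes rose and 36.9% fell. With library totals alone 4 of the 16 rose, and 3726 of all 13330 genes did. GNL3, nucleostemin, a nucleolar GTPase, stood at 94.4 and 98.3 CPM in 10 µM persister, 82.5 and 80.2 in 320 µM persister, 82.5 and 81.8 in 10 µM adapted, 200.1 and 197 in 320 µM adapted and 89.99 and 90.3 in control cells. Its rise of 1.14 ± 0.05 in 320 µM adapted cells (adjusted p = 8.92e-19) stands against falls of 0.15 in 320 µM persister cells and 0.13 in 10 µM adapted cells, neither of which was called when any 1 of its 4 compared sums was left out (adjusted p = 0.0554 to 0.178). BRIX1, a Brix-domain protein of large subunit assembly, stood at 204 and 171, 128 and 127, 151 and 147, 224 and 210, and 154 and 150 CPM in the same order. It rose by 0.51 ± 0.05 in 320 µM adapted cells (adjusted p = 1.96e-09) and by 0.30 in 10 µM persister cells, and fell by 0.25 in 320 µM persister cells. In 10 µM persister cells it was at 0.18 without pool 1 of that condition and at −0.0073 in cells off the deposited list, and in 320 µM persister cells at 0.058 in cells on it.

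MRTO4, which acts in assembly of the ribosomal stalk, fell in all 4 conditions and was lowest in 10 µM adapted cells. Its sums were 98.5 and 95.9 CPM in 10 µM persister, 65.2 and 62.1 in 320 µM persister, 44.2 and 48.4 in 10 µM adapted, 64.9 and 59.5 in 320 µM adapted and 116 and 117 in control cells. The fall of 1.33 ± 0.06 on the log2 scale in 10 µM adapted cells (adjusted p = 1.1e-17) was the largest there, beside falls of 0.26, 0.87 and 0.91 in the other conditions. NOC2L, a nucleolar protein that also binds histones, stood at 79.7 and 71.4, 79.0 and 82.8, 42.1 and 47.4, 60.8 and 66.4, and 85.4 and 82.9 CPM in the same order. It fell by 0.91 ± 0.07 in 10 µM adapted and by 0.40 ± 0.06 in 320 µM adapted cells and did not pass in either persister condition.

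WDR74, which acts with the AAA-ATPase NVL in maturation of the large subunit, was highest in 10 µM persister cells. Its sums were 82.0 and 69.7 CPM there, 43.7 and 40.2 in 320 µM persister, 46.7 and 44.5 in 10 µM adapted, 45.2 and 45.1 in 320 µM adapted and 38.5 and 38.3 in control cells. The rise of 0.98 ± 0.08 (adjusted p = 9.19e-12) was the largest in 10 µM persister cells, and both adapted conditions were above control by 0.25 and 0.23. WDR74 shares exon sequence on its strand with TEX54, NOP2 with the annotated gene AC006064.6, and PPAN with P2RY11 and the readthrough gene PPAN-P2RY11, so counts of these genes may be divided in ways that are not stated.

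The PES1, BOP1 and WDR12 proteins form 1 complex needed for large subunit maturation, yet their transcripts differed. PES1 rose by 0.59 in 10 µM persister and by 0.59 in 320 µM adapted cells, BOP1 fell by 0.59 in 10 µM persister and by 0.36 in 320 µM persister cells, and WDR12 fell in all 4 conditions by 0.66, 0.40, 0.54 and 0.38. In cells off the deposited list PES1 turned to −0.19 in 10 µM persister cells. BOP1 stood there at 93.8 and 58.3 CPM, against 80.7 and 89.0 CPM in control cells off the list. Its fall in 10 µM persister cells was not called under every alternative tried. BOP1 rose by 0.19 in 320 µM adapted cells, which turned to −0.036 with library totals alone and was not called without pool 2 of that condition, at 0.14, or without pool 1 of control, at 0.11. RRP1B, a nucleolar protein, stood at 47.2 and 43.0, 60.5 and 59.0, 60.3 and 52.1, 78.2 and 75.6, and 64.3 and 63.5 CPM in the order of conditions used throughout.

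RRS1, which acts in assembly of the 5S particle, fell by 0.50, 0.57, 0.64 and 0.47, and URB2, a nucleolar factor, by 0.50, 0.56, 0.69 and 0.80. The 10 µM persister call of URB2 was lost without either sum of that condition and without pool 2 of control, at −0.55 to −0.43 (adjusted p = 0.127 to 0.205), and its 320 µM persister value was −0.29 without pool 2 (adjusted p = 0.238) and −0.87 without pool 1. NOP16 and NOC3L fell in the first 3 conditions, by 0.31, 0.76 and 0.32, and by 0.42, 0.57 and 0.26, and NOC3L rose by 0.25 in 320 µM adapted cells. Without pool 1 of 10 µM persister cells NOP16 was not called there, at −0.22, and NOC3L was at −0.27. Without pool 2 of 10 µM adapted cells NOC3L was not called there, at −0.18. NIP7 rose by 0.19 in 320 µM adapted cells, a change that turned to −0.032 with library totals alone and was not called without pool 1 of control, at 0.18. PPAN rose by 0.47 and 0.27 in 10 µM persister and 320 µM adapted cells and fell by 0.50 and 0.41 in the other 2 conditions. All 4 calls of PPAN were lost with 1 sum left out. In 10 µM persister cells it was at 0.19 without pool 2 (adjusted p = 0.467), in 320 µM persister cells at −0.38 without pool 1, and in 10 µM adapted cells at −0.33 without pool 1. In 320 µM adapted cells it was at 0.20 to 0.28 (adjusted p = 0.0681 to 0.176) without either sum of that condition or pool 1 of control. NOP2, a ribosomal RNA methyltransferase, was too thinly counted to follow in persister cells, with 3 and 2 UMIs in 10 µM persister, 9 and 10 in 320 µM persister, 14 and 31 in 10 µM adapted, 63 and 44 in 320 µM adapted and 36 and 34 in control sums, and its rise of 1.09 ± 0.27 in 320 µM adapted cells (adjusted p = 0.00059) is correspondingly imprecise.

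Adapted cells were also set against persister cells at the same dose. At 320 µM 29 of the 40 genes were higher and 3 lower in adapted cells, where 34.1% of all tested genes were higher and 32.6% lower. At 10 µM 10 were higher and 17 lower, against 31.4% and 29.3% of all genes. The largest difference upward at 320 µM was RRP9, at 1.68 ± 0.08 (adjusted p = 1.07e-16), and the largest downward among called genes NOC2L, at −0.35 ± 0.07 (adjusted p = 5.67e-05). At 10 µM the largest among called genes were FBL, at 0.88 ± 0.06 (adjusted p = 2.94e-14), and MRTO4, at −1.07 ± 0.07 (adjusted p = 1.15e-13). NPM1 was higher in adapted cells at both doses, by 0.96 ± 0.04 at 320 µM and 0.88 ± 0.04 at 10 µM. With library totals alone the counts were 22 higher and 10 lower at 320 µM and 7 and 22 at 10 µM, as the median of all genes moved by −0.28 and −0.19 and the share of higher genes among all calls was 33.6% in place of 51.2% and 38.9% in place of 51.8%. With library totals that leave out ribosomal protein genes, the counts at 10 µM were 13 and 13, with a median of −0.021 in place of −0.16 over the 40 genes and 61.3% higher among all calls.

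At 320 µM against 10 µM, adapted cells had mostly rises and persister cells more falls than rises. The 10 µM and 320 µM adapted cells are different populations, so dose cannot be told apart there from other differences between populations. Dose effect is used below only as a name for the change at 320 µM over 10 µM. Among adapted cells 29 genes were higher and 3 lower at 320 µM than at 10 µM, against 33.4% and 32.4% of all genes, and among persister cells 5 were higher and 17 lower, against 25.3% and 24.4%. RRP9 rose most with dose in adapted cells, by 1.51 ± 0.07 (adjusted p = 9.67e-17), and FBL fell most, by 0.40 ± 0.05 (adjusted p = 3.18e-08). Among called genes in persister cells RRP1B rose most, by 0.41 ± 0.09 (adjusted p = 0.00036), and GAR1 fell most, by 1.36 ± 0.10 (adjusted p = 2.01e-12). The 5 rises with dose in persister cells are NCL, NPM1, BOP1, WDR12 and RRP1B, named after their values were seen, and their number moved with the settings. It was 1 with library totals alone, relative log expression factors, DESeq2, thinned sums or the compared sums only, and 1 without pool 2 of 10 µM persister, 2 without pool 1 of 320 µM persister and 3 without pool 2 of 320 µM persister. In cells off the deposited list it was 0, and NCL, NPM1, BOP1 and WDR12 turned negative. With library totals that leave out ribosomal protein genes, 8 were higher and 12 lower among persister cells, with a median of −0.020 in place of −0.16 over the 40 genes, as the median of all genes moved by 0.14.

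Opposite calls were made for 13 genes (32.5%), which were lower at 320 µM than at 10 µM in persister cells and higher at 320 µM than at 10 µM in adapted cells, and 6.16% of all tested genes were. They are NOP16, GAR1, NOLC1, NOC4L, PES1, RRP9, RRP12, BRIX1, GNL3, PPAN, UTP18, MRTO4 and DDX21. Of these only MRTO4 and BRIX1 kept both calls under every alternative tried. Between persister doses PES1 turned positive in cells off the deposited list. In persister cells the call of UTP18 was lost without pool 1 of 10 µM persister, at −0.13, and without pool 2 of 320 µM persister, at −0.22, and that of DDX21 without the same 320 µM pool, at −0.16. NCL alone showed the opposite pair of calls, which 6.85% of all genes did. The difference between the dose effects itself, adapted minus persister, was positive for 26 genes and negative for 2, NCL and FBL, against 23.4% and 25.9% of all genes. The lowest p-values were those of GNL3, at 1.52 ± 0.08 (adjusted p = 1.07e-15), DDX21, at 1.49 ± 0.08 (adjusted p = 4.65e-15), RRP9, at 1.98 ± 0.14 (adjusted p = 1.52e-12), and GAR1, at 1.66 ± 0.13 (adjusted p = 4.02e-12). In each of these 4 both pools gave the same sign, which is no separate support, since they were picked by p from the same sums.

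**Figure D5:**
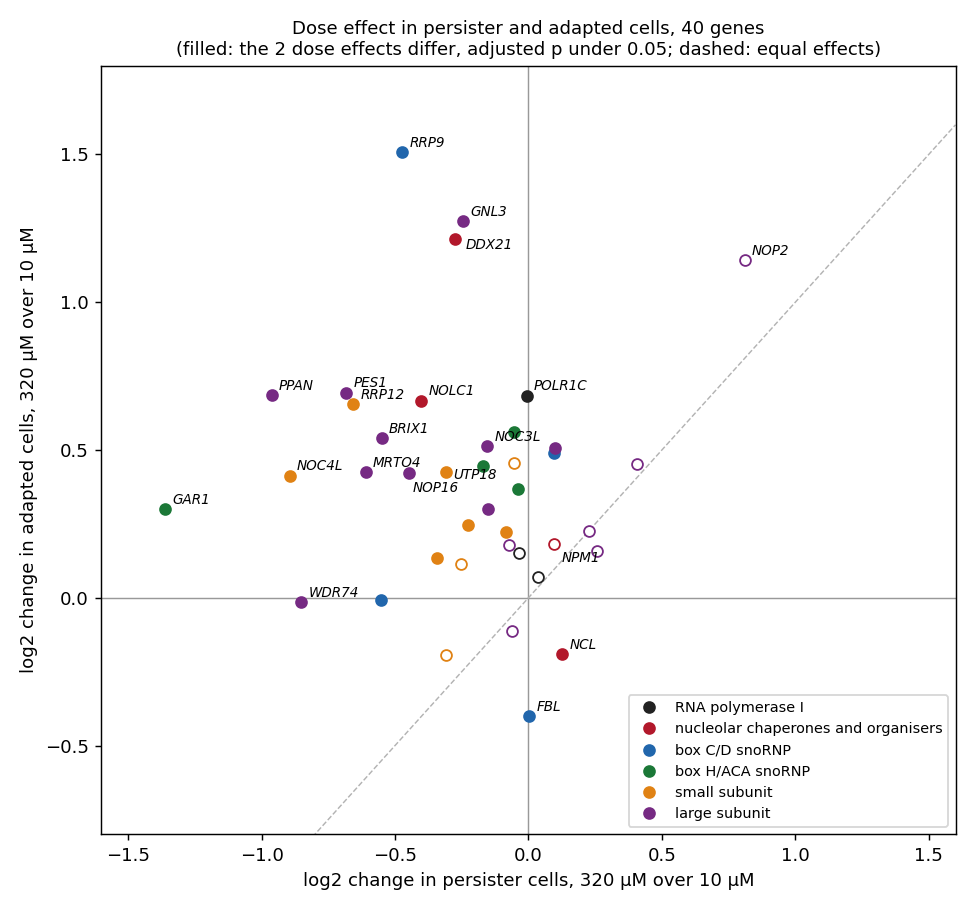
log2 change at 320 µM over 10 µM of each of the 40 genes in persister cells (x axis) and in adapted cells (y axis), coloured by role. Filled points have dose effects that differ between the states at adjusted p under 0.05, and most lie in the upper left, with GAR1 furthest left and RRP9 highest.

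Other genes of the same process, taken from lists of their known functions, fell more often than they rose in 320 µM persister and 10 µM adapted cells. The counts of all lists, here and below, stand beside the shares of all tested genes. In 10 µM persister cells 27.3% rose and 29.3% fell, and in 320 µM persister cells 26.3% and 28.3%. In 10 µM adapted cells the shares were 33.7% and 33.4%, and in 320 µM adapted cells 37.6% and 36.9%. Of 44 further small subunit factors tested, 13 rose and 12 fell in 10 µM persister, 3 and 25 in 320 µM persister, 6 and 30 in 10 µM adapted and 14 and 20 in 320 µM adapted cells, with median log2 changes of 0.014, −0.23, −0.34 and −0.15. Of 42 further large subunit factors, 6 rose and 17 fell, 4 and 26, 8 and 23, and 14 and 18 in the same order, with medians of −0.19, −0.28, −0.28 and 0.0084. With library totals alone the small subunit factors counted 18 rises and 8 falls in 10 µM persister and 9 and 27 in 320 µM adapted cells, and the large subunit factors 15 and 13, and 12 and 24. Of all 13330 genes 4346 rose and 3212 fell, and 3726 and 6233, with that scaling. DDX52, a helicase of the small subunit pathway, rose by 1.11 ± 0.07 in 10 µM persister cells and fell by 0.57 in 320 µM adapted cells. UTP11 fell by 0.93 and SNU13, which binds box C/D RNAs, rose by 0.68 in 320 µM adapted cells, where EIF6, an anti-association factor of the large subunit, and RSL24D1, an assembly factor, rose by 0.94 and 0.93. NOL9, a kinase of the precursor RNA, fell in all 4 conditions, by 1.08, 0.37, 1.53 and 1.00.

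Of 18 further genes of RNA polymerase I and its promoter factors, 5 rose and 8 fell, 2 and 10, 2 and 11, and 7 and 8, with medians of −0.092, −0.21, −0.21 and −0.052. UBTF, the upstream binding factor of ribosomal DNA, fell in all 4 conditions, by 0.82, 0.60, 0.78 and 0.98, and so did the subunit POLR1E, by 1.54, 0.71, 1.20 and 0.37. TAF1D, of the promoter selectivity factor, rose in all 4, by 0.55, 0.20, 0.90 and 1.03. Among 11 snoRNP assembly genes 2 rose and 5 fell, 0 and 8, 3 and 7, and 4 and 4, with medians of −0.13, −0.22, −0.36 and −0.0059. RUVBL2 and PIH1D1, of the R2TP chaperone complex, rose by 1.40 and 1.07 in 320 µM adapted cells, and ZNHIT6 fell by 1.02. Among 16 genes of the RNA exosome and of trimming, 4 rose and 9 fell, 4 and 8, 2 and 9, and 7 and 6, with medians of −0.21, −0.23, −0.28 and 0.020. The exosome genes EXOSC3 and EXOSC10 fell by 1.37 and 1.02 in 10 µM adapted cells, and EXOSC7 rose by 1.20 in 320 µM adapted cells.

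MYC itself fell by 0.65 ± 0.07 in 10 µM persister (adjusted p = 7.36e-08) and by 0.62 ± 0.06 in 10 µM adapted cells and rose by 0.27 ± 0.06 in 320 µM persister (adjusted p = 0.00073) and by 0.50 ± 0.06 in 320 µM adapted cells. Of 11 genes of its network 4 rose and 4 fell, 5 and 3, 2 and 5, and 6 and 3, with medians of −0.0080, 0.19, −0.10 and 0.24. Its partner MAX rose in all 4 conditions, by 1.15, 0.43, 0.25 and 0.70, and so did MLXIP, by 1.25, 0.60, 0.42 and 0.68. The MYC antagonist MXD3 fell by 1.84, 0.64 and 0.31 in the first 3. Of 25 other known MYC targets 2 rose and 16 fell, 1 and 20, 6 and 12, and 11 and 8, with medians of −0.29, −0.54, −0.17 and −0.015, and 8 and 13 in 320 µM adapted cells with library totals alone. HSPD1, a mitochondrial chaperonin, fell in all 4, by 1.14, 0.91, 0.38 and 0.58, NME1, a nucleoside diphosphate kinase, fell by 1.19 in 320 µM persister cells, and PRMT1, an arginine methyltransferase, rose by 1.42 in 320 µM adapted cells.

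Cell cycle genes moved in the same samples. Of 18 S phase genes 0 rose and 17 fell in 10 µM persister, 0 and 17 in 320 µM persister, 1 and 11 in 10 µM adapted and 2 and 10 in 320 µM adapted cells (medians −1.24, −1.02, −0.31 and −0.26), with CLSPN, MCM4 and RRM2 lower by 1.43, 1.41 and 1.24 in 10 µM persister cells. Of 18 G2/M genes 0 and 18, 0 and 18, 1 and 14, and 6 and 7 did so (medians −1.76, −1.62, −0.43 and 0.024), TOP2A, CCNB1 and CDC20 falling by 1.98, 1.74 and 1.81 in 10 µM persister cells. The proliferation marker MKI67 fell in all 4 conditions, with log2 changes of −2.15, −1.71, −0.62 and −0.59, and PARP1, a target of olaparib, likewise with −0.87, −0.56, −0.94 and −1.36. A deposited list of cells has a name that ends in g1, and its basis is not stated. It held 75.3% and 76.0% of cells in 10 µM persister and 78.7% and 74.9% in 320 µM persister. The shares were 62.9% and 67.0% in 10 µM adapted, 53.9% and 55.1% in 320 µM adapted and 42.3% and 43.5% in control. Each comparison was also fitted within listed and within unlisted cells.

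Within control cells, those off the list had slightly more of these transcripts. In control 29 of the 40 genes were higher in unlisted than in listed cells in both pools and 2 were lower, against 36.6% and 36.2% of all tested genes, with summed levels of 7555 and 7357 CPM in unlisted and 7022 and 6799 CPM in listed cells. In 320 µM persister cells 10 were higher and 23 lower, against 35.7% and 37.6% of all genes, with 4291 and 4228 CPM in unlisted and 5050 and 4872 CPM in listed cells. In 320 µM persister cells thinned to 3000 UMIs, the mean was 14.7 and 15.1 UMIs of the 40 genes in unlisted cells. It was 14.9 and 14.4 in listed cells, so the order differed between the pools. The counts were 10 higher and 17 lower in 10 µM persister cells, where 27.2% and 35.7% of all genes were and the median of the 40, −0.11, lay next to that of all genes, −0.10. They were 19 and 14 in 10 µM adapted cells (32.1% and 41.1% of all genes) and 18 and 16 in 320 µM adapted cells (35.5% and 38.2%). In 320 µM adapted cells the summed levels were 7704 and 7372 CPM in unlisted and 8280 and 7866 CPM in listed cells. With thinning this order turned, at means of 20.8 and 20.2 UMIs in unlisted and 18.8 and 18.3 in listed cells. The cause of these shifts between scales was not tested. Compared with control among listed cells alone, 10 µM persister cells had 11 rises and 16 falls (26.4% and 25.9% of all genes), 320 µM persister cells 2 and 19 (23.5% and 23.6%), 10 µM adapted cells 3 and 17 (29.8% and 27.9%) and 320 µM adapted cells 21 and 7 (33.5% and 33%). Among unlisted cells the counts were 1 and 10 in 10 µM persister (17.4% and 17.1%), 0 and 29 in 320 µM persister (20.8% and 21.8%), 2 and 22 in 10 µM adapted (30.1% and 29.7%) and 15 and 13 in 320 µM adapted cells (36.4% and 36.2%). These values share the cells from which the list was drawn and carry no test between listed and unlisted cells.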

How the data were processed

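Cells were tagged with TotalSeq-A hashtags and sequenced as 10x Genomics 3′ v3.1 single-cell libraries, per the labels' protocols. The 10 GEO samples, which are 8 gene expression and 2 hashtag libraries, hold cells of all 5 conditions, so the condition and pool of a cell were read from its deposited name. Per the submitters' processing notes, Cell Ranger 3.1, Seurat and hg38/GRCh38 were used, with settings not given in the sources used here. In the deposited matrix are UMI counts that the authors did not normalize, for 19893 genes in 13800 cells, which are 7346 of 9780 listed barcodes of pool 1 and 6454 of 9117 of pool 2. The pools share 13 barcodes. Other deposited values used here are the scores of depth per cell (UMI counts deposited by the authors) and a table of 7762 cells whose name ends in g1. No doublet caller was run, and whether the authors removed doublets is not given.

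Counts were summed over all cells of a condition in a pool, scaled by the trimmed mean of M-values method (factors 0.868 to 1.11), filtered with filterByExpr by condition and tested with the robust quasi-likelihood method of edgeR 4.0.16 (R 4.3.3) in 1 model of the 10 sums, with a mean for each condition. The model held 13330 genes and had 5 residual degrees of freedom. Its biological coefficient of variation was 4.39%. The fit was tested on simulated data. Pools of 1 condition differed beyond counting noise, with chi-square per degree of freedom of 2.18 to 3.37 over genes of at least 100 UMIs, so none was counted as a copy. Up to 3 UMIs in a sum were read as at the floor, and precision stated from counts covers counting error only.

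The pool numbers in the titles pair the sums. Between any 2 conditions, the differences between pools correlated by 0.338 to 0.612 over 2730 genes of at least 50 CPM, and 1 alternative had the pool as a replicate block. The others were library totals alone, relative log expression factors, no filter, DESeq2 1.42.0, sums thinned to 3532281 UMIs, cells on or off the deposited list, the compared sums only, each sum left out and, chosen after seeing the data, library totals without ribosomal protein genes.

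The 40 genes and all gene lists were chosen with earlier results of these data known. Named with every sum were the 2 members per role with the highest mean CPM, the called member with the largest rise and fall in each comparison and the 4 with the lowest p for the difference of dose effects; from each list up to 3 genes of at least 20 CPM were taken by lowest p, and PARP1, MKI67 and MYC always. A list of 17 snoRNA host RNAs was not used here. Positions are from GENCODE 29 on GRCh38 and promoters from RefSeq on GRCh38.p14.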

Additional observations from a re-analysis of the deposited data

Results flagged for a closer look

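The change at 320 µM over 10 µM, here called the dose effect, differed between adapted and persister cells for 28 of the 40 genes. The test was of the difference itself (edgeR, Benjamini-Hochberg adjusted p under 0.05 over all 13330 genes). In adapted cells dose cannot be told apart from other differences between the populations. The values below are log2 differences, the dose effect in adapted cells minus that in persister cells, so a positive one means that the gene was relatively higher at 320 µM in adapted cells.

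In RNA polymerase I the difference was 0.69 for POLR1C. Among nucleolar chaperones and organisers it was 1.49 for DDX21 and 1.07 for NOLC1, while NCL had −0.32. Among box C/D proteins it was 1.98 for RRP9, 0.55 for NOP58 and 0.39 for NOP56, while FBL had −0.40. All 4 box H/ACA proteins had a difference, of 1.66 for GAR1, 0.62 for DKC1, 0.61 for NHP2 and 0.41 for NOP10.

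Among small subunit factors it was 1.31 for RRP12, 1.31 for NOC4L, 0.74 for UTP18, 0.48 for UTP4, 0.47 for NOP14 and 0.30 for DDX10. Among large subunit factors it was 1.65 for PPAN, 1.52 for GNL3, 1.38 for PES1, 1.09 for BRIX1, 1.03 for MRTO4 and 0.87 for NOP16. WDR74 had 0.84, NOC3L 0.67, NIP7 0.45 and NOC2L 0.41. The calls of DDX10 and UTP4 were lost with 1 sum left out, DDX10 at 0.24 to 0.32 without any of 5 sums and UTP4 at 0.35 without pool 1 of 10 µM persister. Groups of 2 sums were too small to look for single sums that stand apart.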

How the results depend on the processing

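With the pool as a replicate block every one of the 263 called pairs of gene and comparison kept its call, the 10 µM persister falls numbering 22 in place of 20. Over all alternatives the called pairs gave 3794 values, of which 3388 kept direction and call, 381 kept direction only and 25 turned. In the 4 comparisons against control 10, 17, 13 and 16 of the called genes (10 µM persister, 320 µM persister, 10 µM adapted, 320 µM adapted) kept their call under every alternative. The causes of the changes below were not tested, apart from those built into thinning and into smaller sets of cells, which leave fewer counts.

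Library totals alone gave 2 rises in 320 µM persister cells and 10 in 320 µM adapted cells against control, 10 genes lower at 320 µM in adapted than in persister cells, 1 higher at 320 µM than at 10 µM among persister cells and 5 lower at 320 µM among adapted cells. They turned 320 µM adapted against control to −0.0799 for DKC1, −0.036 for BOP1, −0.032 for NIP7 and −0.11 for NOP56, adapted against persister cells to −0.086 for NHP2 at 10 µM, and at 320 µM to −0.029 for POLR1C and −0.071 for NOP10. Totals without ribosomal protein genes gave 2 rises in 320 µM persister cells against control and 8 genes higher at 320 µM than at 10 µM among persister cells. They left 34.2% of all calls of the difference of dose effects positive in place of 47.5%, and 63.5% in place of 50.8% of calls between persister doses. Relative log expression factors, DESeq2, thinned sums and the compared sums alone each gave 1 gene higher at 320 µM among persister cells, and leaving out single sums gave 1 to 5; the compared sums alone gave 1 rise in 320 µM persister cells.

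Thinned sums called 4640, 5502 and 5325 genes in all in 320 µM persister against control, 10 µM adapted against control and 320 µM against 10 µM adapted cells, and 14 falls of the 40 in 10 µM adapted cells, 14 rises in 320 µM adapted cells, 1 gene lower in adapted than in persister cells at 320 µM and 19 higher at 320 µM than at 10 µM adapted. NOP14 turned to 0.029 in 10 µM adapted cells against control and to −0.036 at 320 µM against 10 µM adapted.

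Cells on the deposited list gave 2 rises in 320 µM persister, 17 falls in 10 µM adapted and 7 falls in 320 µM adapted cells against control, and turned BRIX1 in 320 µM persister cells to 0.058 and NHP2 in 10 µM adapted against persister cells to −0.0073. Cells off the list, which are few in persister conditions, gave 1 rise and 10 falls among 4271 called genes in 10 µM persister cells, 6 higher and 4 lower among 4700 in 10 µM adapted against persister cells, 1 lower in 320 µM adapted against persister cells, 0 higher among 3566 between persister doses and 0 negative among 3936 for the difference of dose effects. They turned RRP9 to −0.18, BRIX1 to −0.0073, NOP10 to −0.052 and PES1 to −0.19 in 10 µM persister cells against control, RRP9 to 0.13, BRIX1 to 0.058, PES1 to 0.027 and RRP1B to −0.015 in 10 µM adapted against persister cells, and WDR43 to 0.099 in 320 µM adapted against persister cells. Between persister doses they turned WDR12 to −0.16, NCL to −0.22, NPM1 to −0.23, BOP1 to −0.29 and PES1 to 0.20. At 5000 UMIs per thinned cell the 40 genes took 0.618% of the UMIs of 10 µM adapted cells, against 0.603% at 3000, and the other conditions moved by less than the spread between pools.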
